A study of Homo sapiens with 6 samples.

Results

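Kruppel-like factors are transcription factors that end in a set of zinc fingers. The 10 genes described here are KLF2, KLF4, KLF5, KLF6, KLF9, KLF10, KLF11, KLF13, KLF15 and KLF16, and they were taken by gene name from a table of mRNA levels in HEK293T cells. By gene name they account for 15 of the 38438 transcripts and 10 of the 19211 named genes in that table, which holds 16 KLF genes in all. A further transcript of these genes, which had no gene name and was named by RefSeq accession, is included in the values below. The genes were selected on their RPKM values in growing and PP242-treated cells, which were already known, so the differences of these 10 genes between the conditions are given as descriptions, without a test. The lists of other genes below were also chosen with earlier results of these data known. Their adjusted p-values are therefore not independent evidence.

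The study asked which mRNAs the RNA-binding protein LARP1 binds when the kinase mTOR is active or inhibited. HEK293T is a human embryonic kidney line that carries the SV40 large T antigen, and all samples came from this 1 line, grown in medium with serum. mRNA-seq was made from 2 libraries of growing cells and 2 libraries of cells treated with 2.5 µM PP242, which blocks the catalytic site of mTOR, without 4-thiouridine. The duration of the PP242 treatment is not given in the sources used here. LARP1 PAR-CLIP, which crosslinks a protein to 4-thiouridine in RNA, was made from 1 library of growing cells and 1 library of cells treated with 2.5 µM PP242, and both received 100 µM 4-thiouridine during 14 hr before ultraviolet irradiation at 150 mJ/cm2.

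The zinc fingers of these proteins bind GC boxes and CACCC boxes, which many promoters hold and which the related SP factors also bind. The parts outside the zinc fingers differ, and the family is commonly divided by the cofactor bound there: KLF3, KLF8 and KLF12 recruit the corepressor CtBP, KLF9, KLF10, KLF11, KLF13, KLF14 and KLF16 recruit the corepressor Sin3, and KLF1, KLF2, KLF4, KLF5, KLF6 and KLF7 bind acetyltransferases. Several family members are immediate or early response genes whose short-lived mRNAs follow serum, TGF-beta, glucocorticoid or stress signals.

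Levels are given in RPKM, reads per kilobase of transcript scaled to the mapped reads of the library, as deposited for each transcript and library. A gene is represented by its transcript with the highest mean RPKM unless a sum over its transcripts is named, and differences are PP242 minus growing on the log2(RPKM + 1) scale. Each of the 4 libraries had RPKM above 0 in 36046 to 36149 transcripts, and from the steps of the lowest RPKM values the other libraries were 1.04 to 1.06 times as deep as the first growing library. Genes that this line is known to express were present, with 211 RPKM of the intermediate filament gene VIM and 21.7 RPKM of the cadherin gene CDH2 in growing cells, whereas the nephric gene PAX2 was at 0.119 RPKM. Of 7 markers of blood, endothelial, liver, fibroblast and keratinocyte cells, HBB and KRT5 had no entry, PTPRC was listed at 0 in 3 of 4 libraries, PECAM1 and ALB were below 0.05 RPKM, COL3A1 was at 0.403 RPKM and COL1A1 at 1.82 RPKM in growing cells. VIM was higher after PP242 (238 RPKM, difference 0.17, SE 0.020, limma with Benjamini-Hochberg adjusted p = 0.00704), and its part in the values below was not tested. In bulk RNA a smaller number of expressing cells and less RNA per cell cannot be told apart.

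KLF6 stood apart from the other 9 genes: its mRNA was more than doubled after PP242, while KLF16, KLF4, KLF11 and KLF5 were lower and KLF9, KLF13 and KLF15 differed little. KLF6, a factor with an acidic activation domain that is known as an early response gene and a restraint on growth in several tissues, lies at chr10:3818188-3827473 on the minus strand (GRCh37). Its transcript NM_001300.5 measured 2.07 and 2.11 RPKM in the growing libraries and 5.00 and 4.87 RPKM in the PP242 libraries. Both PP242 libraries were well above both growing libraries, and the replicates lay close together. The mean went from 2.09 ± 0.0296 (SD, n = 2) to 4.93 ± 0.0967 (SD, n = 2), which is 2.36-fold and a difference of 0.94 on the log2(RPKM + 1) scale. The 4 KLF6 transcripts in the table were 2.36-fold to 2.42-fold higher, although reads shared between isoforms were divided among them and the 4 values are therefore not separate measurements. Summed over them, KLF6 measured 7.62 and 7.86 RPKM in growing cells and 18.8 and 18.2 RPKM after PP242, and the difference on this sum was 1.16 on the log2(RPKM + 1) scale. Among the 11693 genes tested, KLF6 was in 8th place by the size of its increase, and 0.0941% of genes had a difference at least as large in either direction.

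**Figure D1:**
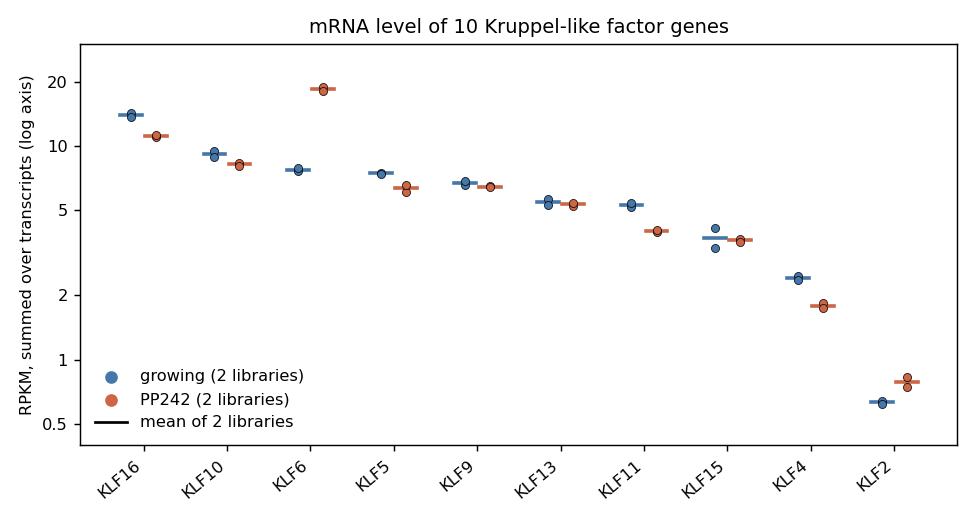
Levels of the 10 Kruppel-like factor genes, in RPKM summed over the transcripts of each gene on a log axis, with a point for each library and a line at the mean of 2 libraries. KLF6 goes from place 3 among the 10 in growing cells (7.74 RPKM) to place 1 after PP242 (18.5 RPKM), and the points of KLF13 and KLF15 overlap between conditions.

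The other acetyltransferase-binding members did not share this pattern. KLF4, one of the factors used to reprogram somatic cells to pluripotency (chr9:110247133-110252763, minus strand), measured 2.47 and 2.35 RPKM in growing cells and 1.84 and 1.74 RPKM after PP242. Every PP242 value lay below every growing value, with means of 2.41 ± 0.0861 and 1.79 ± 0.0687 (SD, n = 2 each), 0.742-fold, and a difference of -0.29. KLF5, a factor linked to proliferation in the intestinal crypt (chr13:73629114-73651679, plus strand), measured 7.47 and 7.43 RPKM and then 6.12 and 6.58 RPKM. The PP242 libraries were again both lower, at 0.853-fold of the growing mean with a difference of -0.20. KLF2, known from quiescent lymphocytes and from endothelium under flow (chr19:16435637-16439496, plus strand), was the scarcest of the 10, with 0.642 and 0.623 RPKM in growing cells and 0.832 and 0.745 RPKM after PP242. Both PP242 libraries were higher, 1.25-fold and 0.13 on the log2(RPKM + 1) scale, but the mean was under 1 RPKM and KLF2 was left out of the fit described below.

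The Sin3-binding members were lower or little different after PP242, and none was higher in both PP242 libraries. KLF16, a repressor first described in brain and the most abundant of the 10 in growing cells (chr19:1852398-1863578, minus strand), measured 14.3 and 13.6 RPKM and then 11.0 and 11.2 RPKM. The growing libraries were both above the PP242 libraries, with means of 13.9 ± 0.479 and 11.1 ± 0.136 (SD, n = 2 each), 0.797-fold, and a difference of -0.30. KLF11 (chr2:10182976-10194963, plus strand), a TGF-beta-inducible repressor, measured 1.72 and 1.85 RPKM in growing cells and 1.35 and 1.38 RPKM after PP242 in its transcript NM_003597.4. The PP242 libraries were both lower, and the 3 KLF11 transcripts lay between 0.750-fold and 0.763-fold of their growing means. KLF10, also induced early by TGF-beta, measured 5.10 and 4.75 RPKM and then 4.47 and 4.27 RPKM in its transcript NM_005655.2. The values did not overlap, but the gap between the lowest growing and the highest PP242 library was smaller than that between the growing libraries, and the difference was -0.14.

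KLF9 and KLF13 completed this subgroup with the smallest differences in it. KLF9, a glucocorticoid and thyroid hormone response gene (chr9:72999520-73029573, minus strand), measured 6.58 and 6.85 RPKM in growing cells and 6.48 and 6.41 RPKM after PP242, a difference of -0.05, and -0.03 without growing replicate 2. The libraries did not overlap, yet 57.0% of all genes tested had a difference at least as large. KLF13, which activates the chemokine gene CCL5 in T lymphocytes (chr15:31619038-31727868, plus strand), measured 5.64 and 5.27 RPKM and then 5.27 and 5.42 RPKM, so the conditions overlapped; the difference was -0.02, and 0.02 without growing replicate 1. KLF15, a regulator of amino acid and glucose metabolism in liver and muscle that belongs to none of the 3 subgroups (chr3:126061478-126076251, minus strand), measured 4.12 and 3.32 RPKM and then 3.68 and 3.56 RPKM. Both PP242 values lay between the growing ones, which were the most widely spread of the 10 genes at 3.72 ± 0.565 RPKM (SD, n = 2), and the difference was -0.02, and 0.10 without growing replicate 1.

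Over the 10 genes, the libraries of the conditions did not overlap in 8, with KLF2 and KLF6 higher and 6 genes lower after PP242; the same held for 59.4% of all genes tested. The median difference of the 10 was -0.10, and -0.17 without growing replicate 2. Over the 9 genes tested, which leave out KLF2, it was -0.14, against -0.0048 over all genes tested. In a limma fit over all transcripts that averaged 1 RPKM or more, 9 of the 10 genes entered, and 5 had a Benjamini-Hochberg adjusted p under 0.05. KLF6 was higher (3.94% of all genes tested were called higher), and KLF4, KLF5, KLF11 and KLF16 were lower (8.3% of all genes were called lower, and 12.2% were called in either direction). Because this contrast was known when the genes were chosen, nothing is read from these counts. KLF6, KLF16 and KLF4 had the largest differences, and 0.0941%, 3.63% and 3.96% of all genes had a difference at least as large, against 6.42% for KLF11, 8.91% for KLF5 and 17.2% for KLF10.

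**Figure D2:**
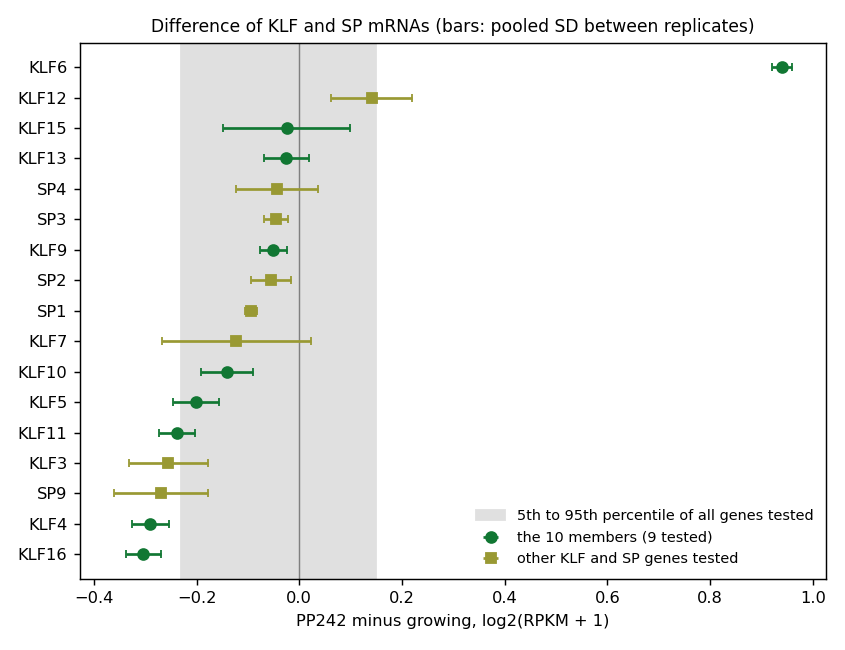
Difference in mRNA level, PP242 minus growing on the log2(RPKM + 1) scale, for the 9 members tested (circles) and 8 other KLF and SP genes tested (squares), with bars of 1 pooled SD between replicates and a grey band from the 5th to the 95th percentile of all genes tested (-0.23 to 0.15). KLF6 (0.94) lies far to the right of the band, and KLF16, KLF4 and KLF11 lie to its left. The squares of SP9 (-0.27) and KLF3 (-0.25) also lie left of the band.

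The order of the genes by level also differed between the conditions. Summed over transcripts, the order in growing cells was KLF16, KLF10, KLF6, KLF5, KLF9, KLF13, KLF11, KLF15, KLF4 and KLF2, and the libraries of KLF13 (5.46 ± 0.260 RPKM, SD, n = 2) and KLF11 (5.31 ± 0.169 RPKM, SD, n = 2) overlapped while those of all other neighbors lay apart. After PP242 the order was KLF6, KLF16, KLF10, KLF9, KLF5, KLF13, KLF11, KLF15, KLF4 and KLF2, and here only KLF9 (6.44 ± 0.0500 RPKM, SD, n = 2) and KLF5 (6.35 ± 0.326 RPKM, SD, n = 2) overlapped. KLF6 thus moved from place 3 to place 1, and KLF5 and KLF9 exchanged places. By the highest transcript alone, KLF6 was in 8th place in growing cells and in 5th place after PP242.

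The RPKM summed over all 16 KLF genes was 76.8 ± 0.806 in growing cells and 79.8 ± 0.0951 after PP242 (SD, n = 2 each), 1.04-fold, with both PP242 libraries above both growing ones. KLF6 made up 9.85% and 10.3% of this pool in the growing libraries and 23.6% and 22.7% in the PP242 libraries. KLF16, the largest single contributor in growing cells, made up 18.4% and 17.8% and then 13.8% and 14.0%. Without KLF6 the pool was 69.1 ± 0.971 RPKM in growing cells and 61.4 ± 0.540 RPKM after PP242, with both PP242 libraries below both growing ones. By subgroup, the 6 acetyltransferase-binding genes summed to 19.9 ± 0.339 and 28.9 ± 0.209 RPKM, the 6 Sin3-binding genes to 40.8 ± 0.832 and 35.3 ± 0.0916 RPKM, and the 3 CtBP-binding genes to 12.4 ± 0.930 and 12.0 ± 0.483 RPKM (SD, n = 2 each). The first sum was higher and the second lower in both PP242 libraries, and the third overlapped between conditions. The first sum turned on KLF6, since its other 5 genes summed to 12.2 ± 0.504 RPKM in growing cells and 10.4 ± 0.236 RPKM after PP242 (SD, n = 2 each), lower in both PP242 libraries.

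**Figure D3:**
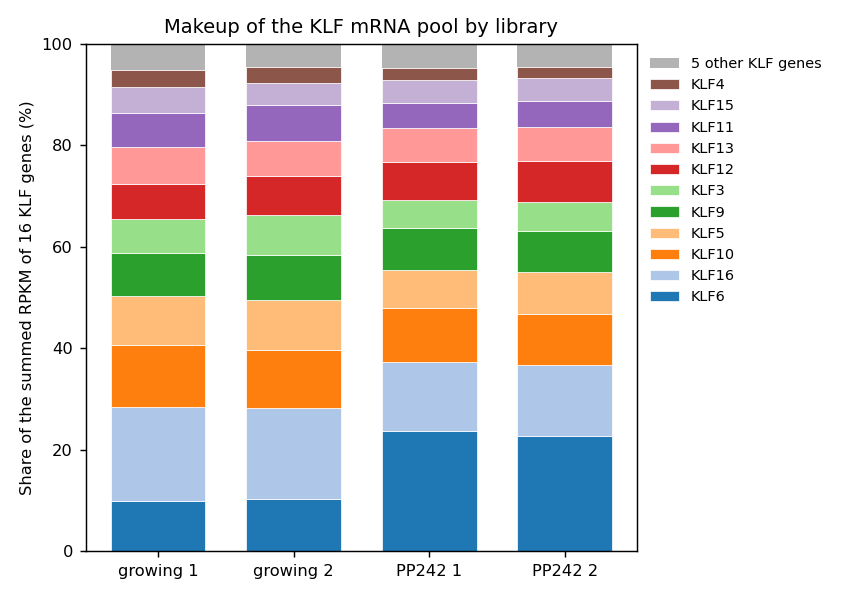
Share of each gene in the RPKM summed over 16 KLF genes, in percent, for each of the 4 mRNA-seq libraries, with the 5 least expressed KLF genes joined in grey. The share of KLF6, at the bottom of each bar, is 9.85% and 10.3% in growing cells and 23.6% and 22.7% after PP242.

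The other members of the KLF and SP family were taken as a list of 17 genes, of which 15 were in the table and 8 were tested. KLF3, a CtBP-binding repressor, was the only one called (1 lower, 0 higher). Over all genes tested, 8.3% were called lower and 3.94% higher. It measured 5.27 and 5.92 RPKM in growing cells and 4.41 and 4.63 RPKM after PP242, a difference of -0.25 (SE 0.054, limma with Benjamini-Hochberg adjusted p = 0.0407). This call was lost when growing replicate 2 (adjusted p = 0.101), PP242 replicate 1 (adjusted p = 0.118) or PP242 replicate 2 (adjusted p = 0.0675) was left out of the limma fit. KLF12, the other CtBP-binding gene tested, went from 5.58 to 6.25 RPKM without passing (difference 0.14, limma adjusted p = 0.166). The general factors SP1 and SP2, the highest expressed of the list, measured 6.76 and 6.63 RPKM in growing cells and 6.27 and 6.35 RPKM after PP242 (limma adjusted p = 0.117 and 0.390). SP9, named after its values were seen, measured 3.20 and 3.08 RPKM in growing cells and 2.65 and 2.23 RPKM after PP242. Its difference was -0.27 (limma adjusted p = 0.0521), larger in size than that of KLF3. Of the 8 genes, 4 (KLF3, KLF12, SP1 and SP9) had an unadjusted p under 0.05 in limma. The median difference of the 8 genes was -0.07.

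Genes of upstream pathways, which carry serum, MAP kinase, TGF-beta, FOXO, cAMP and glucocorticoid signals to KLF promoters, were taken as a list of 20 genes. Of these, 18 were tested, 1 was higher and 1 was lower. MEF2C and the glucocorticoid receptor gene NR3C1 were not tested. The highest of the 15 NR3C1 transcripts measured 0.63 RPKM in growing cells, so no gene of glucocorticoid signals was tested. The share of all genes tested that was called in either direction was 12.2%. EGR1, an immediate early zinc finger factor, measured 0.710 and 0.536 RPKM in growing cells and 2.33 and 2.16 RPKM after PP242, a difference of 1.00 (SE 0.062, limma with Benjamini-Hochberg adjusted p = 0.00129). Its growing mean was under 1 RPKM, so it entered the fit only through the PP242 libraries, and without the filter on low values the limma adjusted p was 0.0513. SRF, the serum response factor that binds CArG boxes in immediate early promoters, fell from 18.7 to 14.3 RPKM, a difference of -0.36 (SE 0.027, limma adjusted p = 0.00193). In both genes the libraries of the conditions lay apart. ATF1, next to SRF the highest expressed gene of this list, measured 12.1 and 11.4 RPKM without passing the test (limma adjusted p = 0.262), and the median difference of the 18 genes was -0.0097.

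EGR1 was also the gene with the profile most like that of KLF6 over the 4 libraries, by the Euclidean distance between log2(RPKM + 1) values set to the growing mean (distance 0.153). JUN, a subunit of AP-1, was next (distance 0.162), with 54.3 and 51.4 RPKM in growing cells and 95.7 and 94.6 RPKM after PP242. The third was HIST2H2BC, a histone H2B locus (distance 0.234), with 2.84 and 2.92 RPKM and then 5.52 and 5.85 RPKM. All 3 were higher in both PP242 libraries, and the likeness rests on 4 libraries. It holds on the log2(RPKM + 1) scale: the folds were 3.60 for EGR1, 1.80 for JUN and 1.97 for HIST2H2BC, against 2.36 for KLF6. With a pseudocount of 0.1 in place of 1, the difference was 1.71 for EGR1 and 1.20 for KLF6. EGR1 also entered the fit only through the PP242 libraries.

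Cofactors that the KLF proteins bind and ubiquitin ligases that act on them were taken as a list of 16 genes, and 15 were tested. None was called, against 12.2% of all genes tested, and 2 (EP300 and FBXW7) had an unadjusted p under 0.05 in limma. HDAC1, the deacetylase of the Sin3 complex, measured 184 RPKM in growing cells and 181 RPKM after PP242, and the corepressor gene CTBP1 measured 24.0 and 24.5 RPKM. FBXW7, the substrate receptor of a ubiquitin ligase that acts on KLF2 and KLF5, was named after its values were seen: it measured 2.08 and 2.56 RPKM with a limma adjusted p of 0.0507. The median difference of the 15 genes was 0.0006, and the other 14 tested had differences from -0.08 (EP300) to 0.06 (ITCH).

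Reported target genes of KLF proteins were taken as a list of 22 genes, of which 14 were tested, 4 rose, 3 fell and 7 did not pass. Of all genes tested, 3.94% were called higher and 8.3% lower. Because the list was chosen with earlier results known, nothing is read from its counts. TXNIP, a thioredoxin-binding arrestin protein, rose from 7.52 to 22.0 RPKM (difference 1.43, limma with Benjamini-Hochberg adjusted p = 0.000342). MYC rose from 32.4 to 54.7 RPKM (difference 0.74, limma adjusted p = 0.000374), and the cell cycle inhibitor gene CDKN1B rose from 12.0 to 14.6 RPKM (difference 0.27, limma adjusted p = 0.00688). CCNB1, the mitotic cyclin, rose from 97.2 to 105 RPKM (difference 0.12, limma adjusted p = 0.0290), but its call was lost without any 1 of the 4 libraries. SMAD7, the TGF-beta inhibitor, fell from 2.73 to 1.24 RPKM (difference -0.74, limma adjusted p = 0.00076), and CCND1, the cyclin of G1 phase, fell from 17.2 to 10.1 RPKM (difference -0.71, limma adjusted p = 0.000645). CDKN1A, the p21 gene and the most cited target of KLF4 and KLF6, fell from 3.75 to 2.29 RPKM (difference -0.53, limma adjusted p = 0.00263). ODC1, the highest expressed of the list, measured 186 and 179 RPKM without passing. Without the filter on low values, CDKN1A (limma adjusted p = 0.0590), CDKN1B (limma adjusted p = 0.0670) and CCNB1 (limma adjusted p = 0.0951) did not pass. The median difference of the 14 genes was 0.05.

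**Figure D4:**
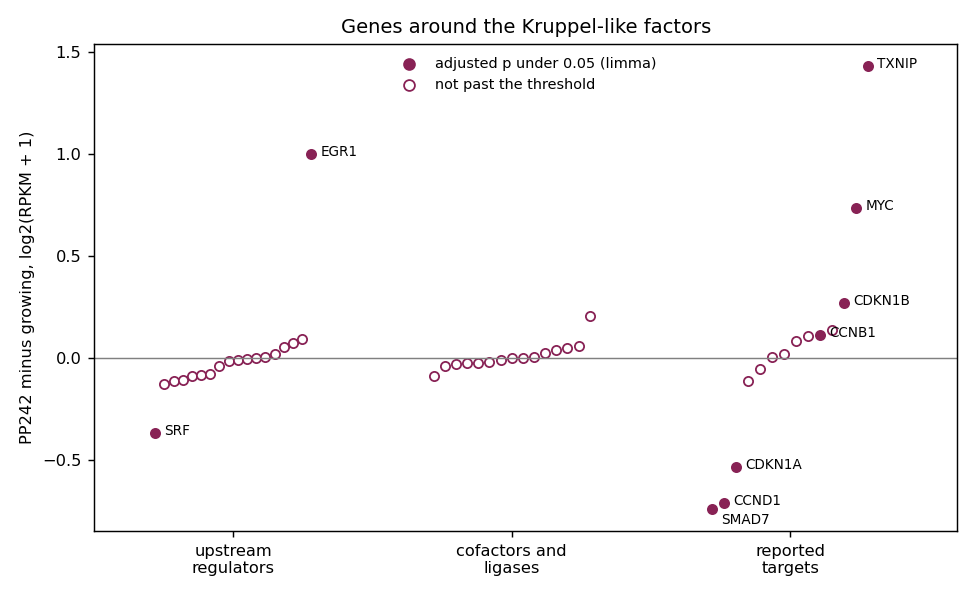
Difference in mRNA level, PP242 minus growing on the log2(RPKM + 1) scale, of tested genes in 3 lists: 18 upstream regulators, 15 cofactors and ubiquitin ligases, and 14 reported targets, with filled points for an adjusted p under 0.05 in limma. EGR1 (1.00), TXNIP (1.43) and MYC (0.74) are the highest filled points, and no cofactor is filled.

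The LARP1 sites listed on these mRNAs all had less than 1 RPM. In growing cells, 2 of the 10 genes had a listed site. Over all genes, about 1817 of the 20062 named by symbol or accession had a listed site in that library. The site on KLF10, at nucleotides 30 to 50 of transcript NM_001032282.2 in the 5'UTR, had 0.0388 RPM (reads scaled to the mapped reads of the library, without division by the transcript level), and 74.1% of the 3948 listed sites had less or the same. The site on KLF13, at nucleotides 6372 to 6386 of transcript NM_015995.2 in the 3'UTR, had 0.0023 RPM, against a median of 0.0052 RPM over all sites. Of the wider family, KLF12, SP1 and SP6 had sites of 0.0013 to 0.0052 RPM, and SP1 carried the same site on 3 isoforms. None of the 7 entries reached 1 RPM, which 677 of all 3948 sites did. After PP242, 0 of the 3947 listed sites were on any KLF or SP gene, while about 1856 genes had a listed site. The median of these 3947 sites was 0.0173 RPM, above every KLF and SP entry in growing cells except that on KLF10. The absence of sites after PP242 is therefore not read as a loss of binding. KLF6 had no listed site in either condition. There was 1 PAR-CLIP library per condition, so these counts have no replicate check, and a gene without a listed site may still be bound below the depth of the library.

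Promoter sequences were taken from RefSeq (GRCh38.p14), from 250 bases before to 50 bases after each annotated start, and 9 of the 10 genes had an entry, with 11 promoters in all. KLF6 and KLF4, which differed in opposite directions above, and KLF11 and KLF15 shared an E-box, the letters CACGTG, which are the same on both strands and are bound by factors such as MYC, USF and TFEB. These 4 windows of 30 bases are shown to compare the bases around the shared motif, with the E-box in capitals, 5′ to 3′ on the strand of the gene. They lie at chr10:3785287-3785316 (KLF6, minus strand), chr9:107489907-107489936 (KLF4, minus strand), chr2:10043637-10043666 (KLF11, plus strand) and chr3:126357435-126357464 (KLF15, minus strand).
KLF6: cggggcgagtCACGTGgggggagggggagt
KLF4: cccccgccccCACGTGcgccgagtttgttg
KLF11: gcccgcagccCACGTGcggccgctgctgcg
KLF15: cccgctgcgtCACGTGagcggcggggagtg
KLF6 and KLF15 share a T before the motif, whereas the motifs of KLF4 and KLF11 follow a C. The E-boxes start at positions -97 in KLF6, -157 in KLF4, -182 in KLF11 and -46 in KLF15, counted from the annotated start. An E-box was found in 4 of the 11 KLF promoters and in 7.26% of all 35116 promoters in the table. Among the 11657 promoters with at least 65% GC, a limit chosen after the sequences were seen, the share was 10.0%, against 4 of the 9 KLF promoters in that range. The 4 genes with the motif had differences of 0.94, -0.29, -0.24 and -0.02, and a match is a description of letters, not of binding.

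Cyclic AMP response elements link promoters to CREB and ATF1. The whole element, TGACGTCA, was found in 1 KLF promoter, the second annotated start of KLF11 at position -176 (chr2:10044035-10044064, plus strand), and in 1.85% of all promoters. It is shown with the element in capitals.
KLF11: tttccagccaTGACGTCAccccggtcctgt
Its half-site TGACG, which the whole element contains and which was searched on both strands, was found in 6 of the 11 KLF promoters (1 each of KLF4, KLF5, KLF11, KLF13, KLF15 and KLF16) and in 24.6% of all promoters. In KLF15 the half-site on the opposite strand overlaps the E-box printed above. The KLF6 promoter held no half-site.

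GC boxes, GGGCGG on either strand, to which KLF and SP proteins bind, were found in 9 of the 11 KLF promoters and in 45.0% of all promoters, and KLF9 had none. Among promoters with at least 65% GC they were found in 9 of 9 KLF promoters and in 86.7% of all. CACCC boxes were found in 4 of the 11 KLF promoters (of KLF5, KLF11 and KLF13) and in 59.9% of all promoters. With at least 65% GC, they were in 3 of 9 KLF promoters and in 71.4% of all. The FOXO site TGTTTAC (3.42% of all promoters), the AP-1 site TGANTCA (7.71%) and the CArG box (1.29%) were found in none of the 11 promoters, and TATAAA (11.5%) in KLF5 alone. GC content ran from 32.7% in KLF9 to 86.0% in KLF16, against a median of 58.7% over all promoters. The absence of a motif says only that these letters are not in this window.

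**Figure D5:**
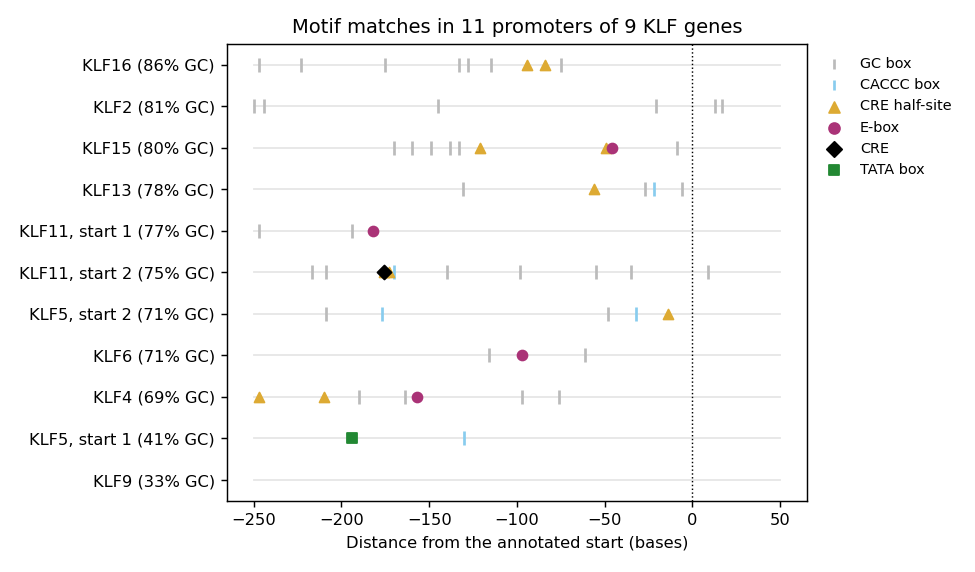
Motif matches on either strand in 11 promoters of 9 KLF genes, by distance from the annotated start in bases, ordered by GC content, with a symbol for each motif. E-boxes stand at -46 to -182 in KLF15, KLF6, KLF4 and KLF11, and the GC-poor promoter of KLF9 (32.7% GC) holds no match.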

How the data were processed

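mRNA-seq was measured in 4 libraries of HEK293T cells and LARP1 PAR-CLIP in 2. The authors removed linkers, mapped reads to the GRCh37 transcriptome with Bowtie, kept perfect matches, divided reads with several matches evenly, and deposited RPKM per transcript and library; reads shared by isoforms or near-identical genes are thus split, and whether strand was used is not given in the sources used here. In PAR-CLIP, overlapping reads with 0 to 2 T-to-C mismatches were joined and smoothed by the authors. They required at least 1 converted read in a cluster and deposited RPM per site. A further column, divided by transcript level, was not used. The study also applied an RPM threshold and reported fewer sites than the 3948 and 3947 listed ones, all of which were used here.

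After 1273 repeated lines were dropped, 38438 transcripts remained, and 2860 of the 5989 without a gene name were named by RefSeq accession. Every per-sample RPKM column was used. Differences were fitted with limma 3.58.1 (R 4.3.3; lmFit, eBayes with a trend) on log2(RPKM + 1) for 21014 transcripts that averaged 1 RPKM or more, unpaired, with Benjamini-Hochberg adjustment over all of them and a threshold of 0.05. The adjusted p-values come from this fit, since an exact permutation test of 2 against 2 libraries cannot go below 0.333. A pseudocount understates changes of low genes. On simulated data for 21014 transcripts with 200 changed by 1 on the log2 scale, 198 were called, and 7 unchanged ones were called. The simulated spreads were shuffled among transcripts, and no smaller change was simulated. The simulation therefore does not show how often differences as small as most of those above are called. Read numbers were not used, so no counting error is given. The sources do not say whether replicates were separate cultures, so p-values measure the spread between these libraries, which may be technical.

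The members and lists were chosen with earlier results of these data known. Named genes are the 10 members; in each list every gene past the threshold (at most 6 by size) and the 2 highest expressed; and the 3 transcripts with the profile nearest to KLF6. Alternatives were other pseudocounts, filters, scalings, a replicate block, a fit without a trend, sums per gene, and leaving out each library. Motifs were searched with Python 3.11.15 in RefSeq promoters.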

Additional observations from a re-analysis of the deposited data

How the results depend on the processing

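The differences of 8 KLF genes kept their sign under every alternative run, KLF6 between 0.92 and 1.20, whereas without growing replicate 1 those of KLF13 and KLF15, whose libraries overlap, were 0.02 and 0.10. In these, 80 values moved by less than the spread between replicates, and 10 values (of KLF2, KLF4, KLF6 and KLF11) were larger with a smaller pseudocount or on gene sums, up to 1.20 for KLF6 with a pseudocount of 0.1. Over all transcripts, 2087 were called. With no filter on low values 120 were called (38438 tested), and EGR1, CDKN1A, CDKN1B and CCNB1 were among the calls lost. Of the 10 KLF genes, 1 was then called higher and 0 lower, in place of 1 and 4. With a mean of at least 5 RPKM, 4 of the 10 KLF genes were tested, 0 were called higher and 2 lower. KLF6 was not among the genes tested there, since its transcript NM_001300.5 averaged 2.09 RPKM in growing cells and 4.93 RPKM after PP242. Leaving out 1 library, where the lone library is assumed to vary like the other condition, gave 863 (growing 1), 972 (growing 2), 1035 (PP242 1) and 1060 (PP242 2). In these fits 1, 2, 2 and 3 of the 10 KLF genes were called lower in place of 4, and nothing is read from these counts.

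The replicate numbers did not pair the libraries (r = 0.0401 for the deviations of same-numbered libraries), and a replicate block called 2135 transcripts, 2 other KLF and SP genes (KLF3 and SP9) and 1 cofactor (FBXW7). Of other KLF and SP genes, 0 were called with no filter, 2 on gene sums, and 0 to 1 without 1 library. With no filter 1 upstream regulator and 4 targets were called, and with a mean of at least 5 RPKM 1 upstream regulator. FBXW7 was also the 1 cofactor called after median scaling and after quantile normalisation. With sites of at least 1 RPM, 0 LARP1 sites on KLF and SP mRNAs remained in growing cells, and on the sense strand alone 3 genes held a CRE half-site. The cause of these changes was not tested, beyond the number of transcripts or libraries entering each fit. Scaling to one median moved the share of higher calls from 35.0% to 44.1%. The 2 libraries per condition limit every difference.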
